A study of Mus musculus with 605 samples.

Results

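The nuclear-encoded oxidative phosphorylation genes were taken here as the protein-coding genes whose symbols begin with Nduf followed by a, b, c, s or v and a digit, with Uqcr, with Cox4 to Cox8, or with Atp5. The rule used names alone and no measured value, and it found 80 of the 30957 gene symbols in the tables. By name, 37 belonged to complex I, 8 to complex III, 18 to complex IV and 17 to complex V. For a few members the name and the known role differ. Ndufa4 and its paralog Ndufa4l2 are counted with complex I by name, although Ndufa4 is now known as a subunit of complex IV, and Atp5s and Atp5sl are assembly-related proteins rather than subunits of the ATP synthase.

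Oxidative phosphorylation takes place in the inner mitochondrial membrane. Complex I passes electrons from NADH to ubiquinone, complex III passes them on to cytochrome c, complex IV hands them to oxygen, and complex V uses the proton gradient that the other complexes build to make ATP. The complexes are mosaics, because a small part of each is encoded in mitochondrial DNA while the rest is encoded in the nucleus and imported. Resting hair follicle stem cells are known for a glycolytic metabolism.

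The data are TPM values of 605 single cells from mouse dorsal skin, in 7 groups. Each group has its own set of wells in the sample titles and is taken here as a plate, although the labels name no plate or capture chip. TPM is transcript abundance scaled for transcript length and for a total. As deposited, the totals varied, with group medians over the cells kept from 808182 in P30 bulge cells to 910839 in mutant melanocytes. Mean TPM below are not divided by them. Stem cells of the hair follicle bulge (keratinocytes) were taken at postnatal day 30 (P30, when wild-type follicles grow) from wild-type mice and at day 56 (P56, when wild-type follicles rest and mutant skin holds growing ones too) from wild-type and mutant mice, and melanocytes and myeloid cells came from wild-type and mutant mice at P56. The mutant is the nevus model Tyr-Nras, in which the Q61K form of Nras is driven in melanocytes by tyrosinase regulatory sequence, so bulge and myeloid cells of mutant skin are neighbours of the altered cells and are not the cells the transgene was built for. For bulk RNA-seq, the paper sorted bulge cells of both genotypes with a K14-H2B-GFP reporter as CD34-positive cells with low P-cadherin. It states no separate sort for the single bulge cells. Melanocytes for bulk RNA-seq were sorted in the paper as tdTomato-positive cells from tamoxifen-induced mutant and control mice that carried Tyr-CreER and the tdTomato reporter. No source used here gives the sort of single melanocytes and myeloid cells. The labels name no animal. Each group was therefore counted as 1 sample and could not be tested against another, and genotype, age and cell type cannot be told apart from plate or chip. An SD below is the spread among the cells of a group. Shares of cells carry 95% Clopper-Pearson (exact) intervals, in which counting error is the one source of error. For a gene found in no cell, the limit given is instead 3 cells of the group, and it bears on cells with a detected value, not on cells that express the gene.

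After the limits on cells, 566 of the 605 cells remained, between 72 and 89 per group. Markers of the labelled lineage led in 83, 77 and 88 cells of the P30, wild-type P56 and mutant P56 bulge groups, in 75 and 80 wild-type and mutant melanocytes, and in 69 and 64 wild-type and mutant myeloid cells. Read depth cannot be had from TPM and is unknown, and the number of genes at 1 TPM or more stands in its place. Its median was 3008 in P30 bulge cells, 4096 and 4249 in bulge cells of wild-type and mutant skin at P56, 2204 and 2815 in melanocytes of wild-type and mutant skin, and 2752 and 2776.5 in myeloid cells of wild-type and mutant skin.

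Sequence near the start of the genes was read from the RefSeq promoter table (GRCm38.p6), which covers 250 bases before to 50 bases after a start and matched 66 of the 80 members, older symbols included. The motif of the factor NRF1, a known regulator of respiratory genes, which reads GCGCA, any base and GCGC, was searched on both strands and stood in 15 of 66 members (22.7%), against 5.19% of 27025 genes with a promoter in the table. Complex V held it most often, in 6 of 16 members (37.5%), and complex IV in 1 of 13. The motif AAGATGGCG of YY1 stood in 8 members (12.1%, against 1.64% of all genes). The ETS motif CCGGAAGT stood in 5 members (7.58% against 4.31%), the SP1 box GGGCGG in 26 (39.4% against 38.2%) and CCAAT in 29 (43.9% against 41.1%). A match of letters is no evidence of binding. The windows below are a match in the member of highest mean TPM of a complex that holds the motif, with the motif (as written or as its reverse complement) in capitals, NRF1 in Ndufa6, Uqcrc1, Cox6a1 and Atp5h and YY1 in Ndufc1 and Atp5j.
Ndufa6 (chr15:82354249-82354278, - strand): ccgtggcaccGCGCGTGCGCacgctgaagg
Uqcrc1 (chr9:108936643-108936672, + strand): cttccttacaGCGCTTGCGCctcagactcc
Cox6a1 (chr5:115349101-115349130, - strand): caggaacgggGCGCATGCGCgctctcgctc
Atp5h (chr11:115420041-115420070, - strand): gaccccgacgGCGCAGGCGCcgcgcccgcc
Ndufc1 (chr3:51408914-51408943, - strand): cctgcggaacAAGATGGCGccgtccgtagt
Atp5j (chr16:84835045-84835074, - strand): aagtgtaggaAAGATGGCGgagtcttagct
Read 5′ to 3′ along each gene, the NRF1 motif began 24 bases after the start in Ndufa6 and 6 after it in Uqcrc1, and 162 and 141 bases before it in Cox6a1 and Atp5h. The YY1 motif began 23 bases after the start in Ndufc1 and 88 before it in Atp5j.

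The summed level of the members, as a percent of all TPM in a cell, had its highest median in mutant bulge cells and its lowest in mutant myeloid cells. The median over cells was 3.74% in P30 bulge cells and 3.02% and 4.04% in wild-type and mutant bulge cells at P56. It was 2.67% and 3.34% in the 2 melanocyte groups and 2.26% and 2.17% in the 2 myeloid groups, wild type first. The cells of a group spread widely, with wild-type P30 bulge cells running from 1.95% to 7.75%, so the groups overlapped although their medians stood apart. Complex I took the largest share in the bulge and melanocyte groups, at 1.30%, 1.01% and 1.33% in P30, wild-type P56 and mutant P56 bulge cells and 0.874% and 1.13% in melanocytes of wild-type and mutant skin. In myeloid cells it stood beside complexes IV and V, at 0.637% for complex I, 0.667% for complex IV and 0.639% for complex V in the wild-type group. Complex III, with 8 genes, had the widest spread of medians in proportion. Its median share was 0.724% in wild-type P30 and 0.459% in wild-type P56 bulge cells and 0.278% in wild-type myeloid cells. Complex IV stood close together in the 3 wild-type cell types at P56, at 0.675%, 0.636% and 0.667% in wild-type P56 bulge cells, melanocytes and myeloid cells.

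The 13 subunits encoded in mitochondrial DNA took a larger share of TPM than the 80 nuclear members in every group, and their order over the groups was another one. Their median share was 8.40% in P30 bulge cells, 4.50% and 6.85% in bulge cells of wild-type and mutant skin at P56, 7.56% and 5.62% in melanocytes of wild-type and mutant skin, and 3.85% and 4.24% in myeloid cells of wild-type and mutant skin. The ratio of the nuclear to the mitochondrially encoded share had a median of 0.494, 0.681 and 0.549 in P30, wild-type P56 and mutant P56 bulge cells. Wild-type melanocytes stood at 0.383 and mutant ones at 0.593, while the myeloid groups stood at 0.608 (wild type) and 0.537 (mutant). Across cells within a group, the nuclear and the mitochondrially encoded share were hardly related, with Spearman's rho between -0.20 in 89 mutant bulge cells and 0.14 in 83 wild-type P56 bulge cells. The shares of complexes I and V, by contrast, went together. Their rho lay between 0.42 in both melanocyte groups and 0.75 in wild-type P30 bulge cells. For complexes I and IV, rho ran from 0.35 in wild-type melanocytes to 0.79 in wild-type P30 bulge cells. Complexes III and IV ran from 0.19 to 0.71 in the same groups, so this pair was only weakly related in wild-type melanocytes. With genes detected per cell, the nuclear share had rho from -0.01 in wild-type P56 bulge cells to 0.57 in mutant myeloid cells. The mitochondrially encoded share fell with genes detected in every group, with rho from -0.55 in mutant bulge cells to -0.16 in mutant melanocytes. These points share their denominator and the quality of each cell, so the values are a description.

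**Figure D1:**
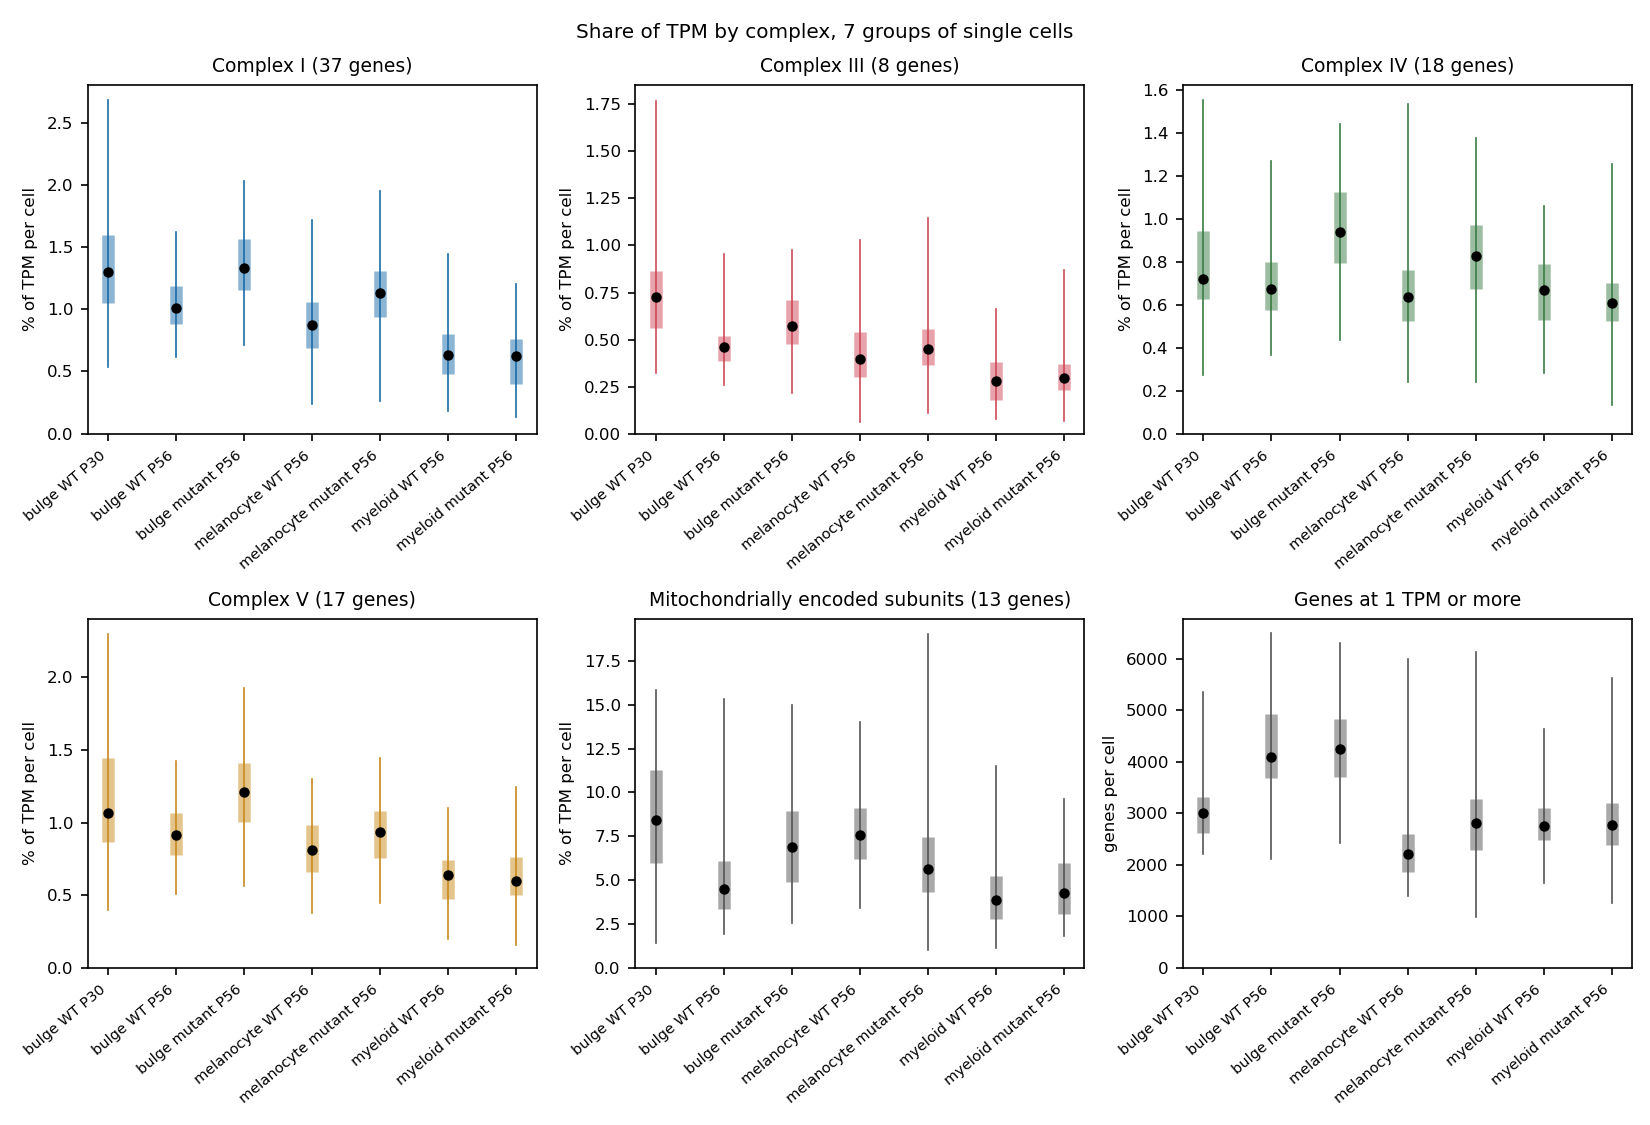
Share of each cell's TPM in the members of complexes I, III, IV and V and in the mitochondrially encoded subunits, and genes at 1 TPM or more, for the 7 groups. Dots are medians over cells, bars the quartiles and lines the whole range. Complex III has its highest median, 0.724%, in wild-type P30 bulge cells, and each complex has its lowest median in a myeloid group.

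Of the 80 members, 70 reached 1 TPM in at least 25% of cells as the mean of the 7 groups' shares, which is the limit for the comparisons below (36 of 37 in complex I, 8 of 8 in complex III, 11 of 18 in complex IV and 15 of 17 in complex V). The median member was found in 95.2%, 92.8% and 96.6% of P30, wild-type P56 and mutant P56 bulge cells, in 61.1% of wild-type and 76.8% of mutant melanocytes, and in 78.1% and 76.4% of wild-type and mutant myeloid cells. Wild-type melanocytes, the group with the fewest genes detected per cell, had 19 of the 70 members under 50% of cells, and 18 of those belonged to complex I. Mutant bulge cells had 53 members at 90% of cells or more and wild-type melanocytes had 3.

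Complex I is built of a core of catalytic subunits and a larger shell of accessory subunits that assemble and stabilise it. The 7 nuclear core subunits, which carry the flavin and most of the iron-sulfur clusters, had a median of 152 mean TPM in wild-type P56 bulge cells, 202 in wild-type melanocytes and 79.2 in wild-type myeloid cells. The 28 accessory subunits stood at 249.1, 163 and 154 in the same groups. The most abundant member of complex I was Ndufa1, a small membrane-anchored accessory subunit encoded on the X chromosome, with mean TPM of 1139 in P30 bulge cells, 644 and 801 in bulge cells of wild-type and mutant skin at P56, 553 and 728 in melanocytes of wild-type and mutant skin, and 494 and 424 in myeloid cells of wild-type and mutant skin. Ndufa4 followed at a mean of 499 over the groups and Ndufb6, an accessory subunit of the membrane arm, at 466. Among the tested members of complex I, Ndufs1, the largest core subunit, was found in the smallest share of cells as the mean of the groups (43.2%). Its share ran from 19.2% of wild-type myeloid cells to 70.8% of mutant bulge cells. Ndufa11, a membrane-arm accessory subunit, had the lowest mean TPM, between 15.9 and 77.3 in the 7 groups.

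In complex III the 5 small subunits had higher mean TPM over the groups, a measure per length, than the 3 larger proteins. Uqcrb, which lies near the ubiquinone sites, had mean TPM of 2129 in P30 bulge cells, 675 and 948 in bulge cells of wild-type and mutant skin at P56, 769 and 1037 in melanocytes of wild-type and mutant skin, and 453 and 522 in myeloid cells of wild-type and mutant skin, so the P30 bulge plate stood far above all others. Uqcr11 had a mean of 906 over the groups and Uqcrh, the hinge protein beside cytochrome c1, 703. Uqcrfs1, the Rieske iron-sulfur protein and one of the subunits that do the electron transfer, had the lowest mean of the complex at 144 and ranged only from 131 in mutant to 187 in wild-type melanocytes.

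In complex IV all nuclear members surround a catalytic core that mitochondrial DNA encodes. Cox4i1, Cox8a and Cox6b1 were the most abundant, at means of 1033, 1008 and 749 over the groups, and Cox4i1 was found in at least 97.5% of the cells of every group. Cox7c was the lowest tested member at 315. Several subunits of this complex exist as a common and a tissue-restricted form. Of the restricted forms, Cox4i2 of lung, Cox7b2 and Cox8c of testis were listed at 0 in every kept cell, which in wild-type P56 bulge cells (0 of 83 cells) allows a share of cells with a detected value of up to 3.61%. Cox6a2, Cox7a1 and Cox8b, the forms of heart and skeletal muscle, had mean TPM of at most 14.3. Cox6b2, the testis form, was the exception, with mean TPM from 3.40 in wild-type P30 bulge cells to 44.7 in mutant melanocytes and was found in 4.76% to 29.2% of cells, far below the 88.9% to 100% of its common counterpart Cox6b1.

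In complex V the catalytic beta subunit Atp5b had the highest mean over the groups (1122), with mean TPM of 818 in P30 bulge cells, 1259 and 1618 in bulge cells of wild-type and mutant skin at P56, 1303 and 1358 in melanocytes of wild-type and mutant skin, and 685 and 812 in myeloid cells of wild-type and mutant skin. Atp5l and Atp5j, subunits of the membrane part and of the peripheral stalk, followed at means of 1041 and 950 over the groups.

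**Figure D2:**
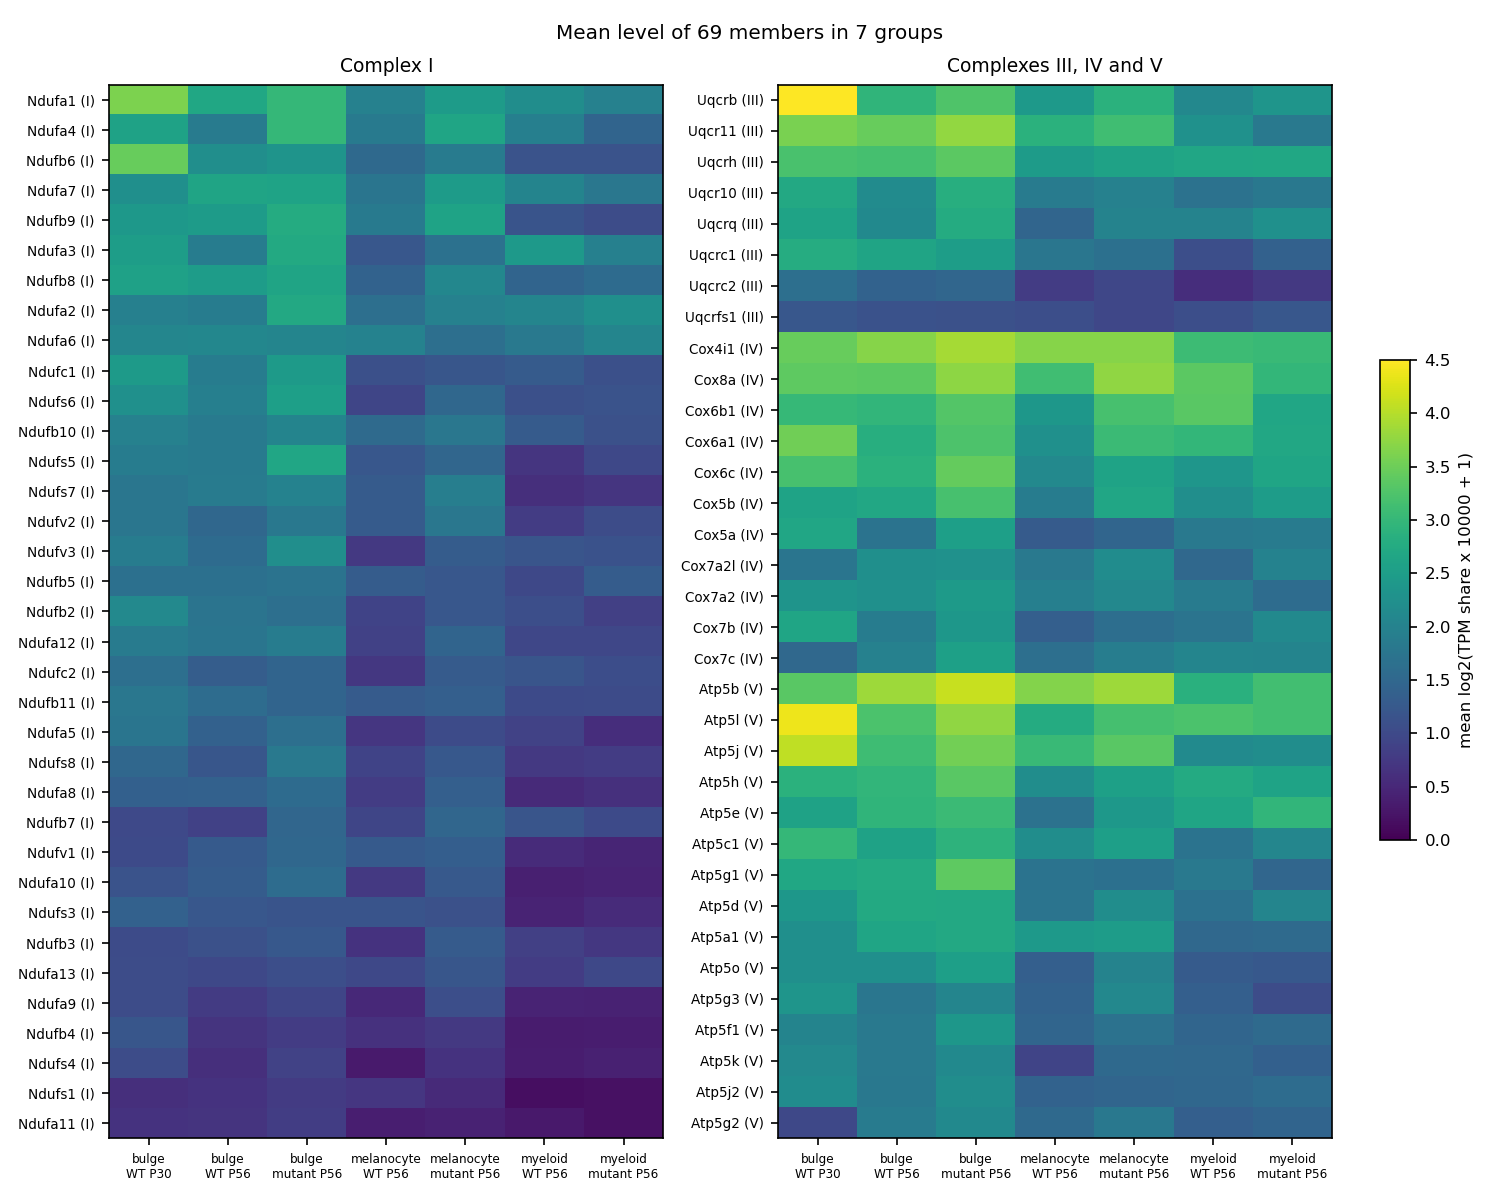
Mean level of 69 of the 70 tested members in the 7 groups, on the scale log2(TPM share x 10000 + 1), ordered within each complex by mean TPM. Uqcrb, Atp5l, Atp5j, Ndufb6 and Ndufa1 are brightest in wild-type P30 bulge cells, and Cox4i1, Cox8a and Atp5b have mean TPM of at least 685 in every group.

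Differences between groups are given as the difference of the mean log2(TPM share x 10000 + 1), where a cell's TPM are first divided by its total. The log2 ratio of mean TPM named below was also taken from TPM divided by each cell's total. The added 1 equals 1 part in 10000 of a cell's total, so differences of low members are understated. Of 4816 genes that met the same 25% limit, those that differed by 0.5 or more set the background. Counts of members are read beside that background, and with 1 sample a group no p-value was computed. The background was counted on this scale in all kept cells alone, so member counts under other settings have none. Wild-type P56 bulge cells enter 4 of the 7 comparisons, which are therefore not independent of each other.

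Between mutant and wild-type bulge cells at P56, the members were mostly higher in the mutant. The median difference was 0.29, against 0.03 over all genes tested, with 62 of 70 members above 0, beside 58.8% of all genes. Of the members, 18 were higher by 0.5 or more and 0 were lower, where 4.9% of all genes were higher and 3.53% lower. Among the 1628 genes found in at least 50% of cells, to which 69 members belonged, the shares were 9.52% and 6.51%. The count of members at 0.5 or more in either direction was 9 in plate rows A to D, 28 in rows E to H, 5 in cells matched for immediate early genes and 34 on log2(TPM + 1). No share of all genes was counted under these settings. Complex IV had the largest median at 0.43, followed by complex V at 0.30, complex III at 0.26 and complex I at 0.17. Ndufa4 had mean TPM of 777 in mutant and 295 in wild-type cells, and its mean log2 level was 2.99 ± 1.02 (SD, 89 cells) against 1.88 ± 0.87 (83 cells), a difference of 1.11. Ndufa3, an accessory subunit of complex I, differed by 0.85 and Cox5a, a subunit on the matrix side of complex IV, by 0.83. The other end of the list was small, with Ndufb11 at -0.14, Uqcrc1 at -0.13 and Ndufb2 at -0.10. By role, the small subunits of complex III had a median of 0.32 and the 3 larger proteins (Uqcrc1, Uqcrc2 and Uqcrfs1) one of -0.03. Likewise the peripheral stalk of complex V had 0.42 and the catalytic head with the central stalk 0.13.

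In the same pair of groups, the 12 tested subunits encoded in mitochondrial DNA had a median difference of 0.44, led by mt-Atp6 at 1.34. Complex II and the electron carriers had 0.20, mitochondrial ribosomal proteins 0.15, the citric acid cycle with pyruvate dehydrogenase 0.10 and assembly factors 0.04. Glycolysis had -0.20 (2 of 15 genes lower by 0.5 or more and 0 higher), with Aldoa at -0.67 and the glucose transporter Slc2a1 at -0.63.

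A list of 17 immediate early genes, which are switched on within minutes of a stimulus, moved with this comparison. The mean log2 level of the list per cell had a median of 2.76 in wild-type and 0.51 in mutant bulge cells at P56. Fos and Atf3 had the largest differences of all genes tested, -4.07 and -3.48. Across cells, the level of the list and the members' share of TPM ran in opposite directions in all 3 bulge groups, with Spearman's rho of -0.48 in 84 wild-type P30 cells, -0.47 in 83 wild-type P56 cells and -0.42 in 89 mutant cells, and stood between -0.21 and 0.00 in the melanocyte and myeloid groups. These shares have one denominator, so a rise of any abundant gene lowers the rest. When 23 mutant cells were paired with 23 wild-type cells of like immediate early level, the members' median was 0.06, beside 0.29 in all cells, and complex I stood at -0.04, complex III at 0.22, complex IV at 0.10 and complex V at 0.10. The paired mutant cells had a mean list level of 2.12, against 0.86 in all mutant cells. The paired wild-type cells had 2.01, against 2.61 in all wild-type cells. The pairs are therefore not typical of the mutant group. The part of the immediate early genes in the difference was not tested further. Pairing 70 cells of each group by genes detected instead gave 0.26. Wells in plate rows A to D gave 0.19 and those in rows E to H 0.38, and cells led by markers of their own lineage gave 0.28.

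**Figure D3:**
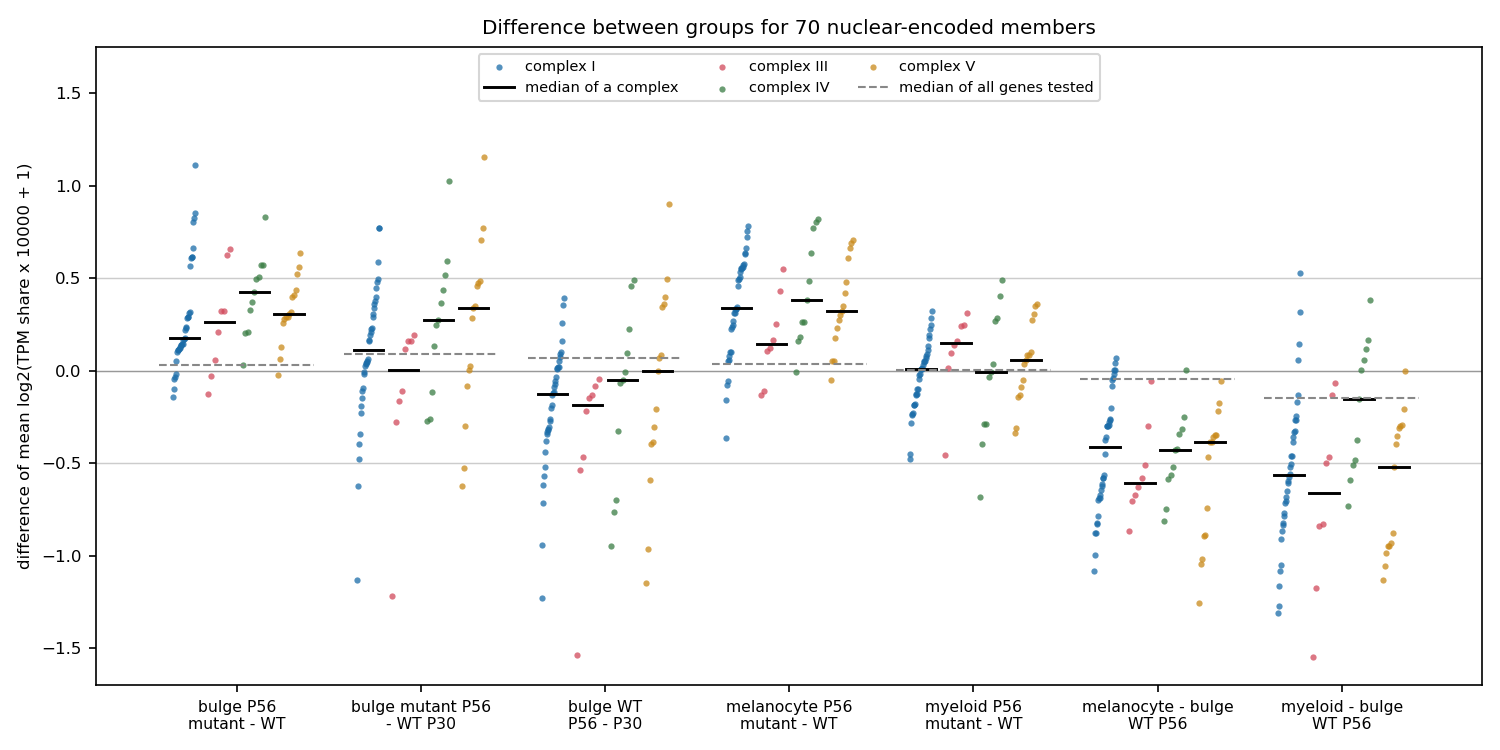
Difference of mean log2(TPM share x 10000 + 1) of each of 70 members in the 7 comparisons, coloured by complex, with the median of each complex (bar) and of all genes tested (dashed line). Members lie mostly above 0 in the mutant minus wild-type comparisons of bulge cells and melanocytes, around 0 in myeloid cells, and mostly below 0 when melanocytes or myeloid cells are set against bulge cells.

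Between mutant and wild-type melanocytes, the members were higher in the mutant by a median of 0.33, against 0.04 over all genes. Above 0 were 62 of 70 members, beside 59.2% of all genes. Here 23 members were higher by 0.5 or more and 0 lower, beside 4.36% and 2.37% of all genes (9.52% and 6.2% of those in at least 50% of cells). Complex IV had a median of 0.38, complex I 0.34, complex V 0.33 and complex III 0.14. The largest differences belonged to subunits of complex IV. Cox6a1 had mean TPM of 943 in mutant and 509.7 in wild-type melanocytes (mean log2 3.07 ± 1.29 in 84 cells against 2.25 ± 1.35 in 81 cells, difference 0.82). Cox6b1, which faces the intermembrane space, had 905 and 501 (difference 0.80), and Ndufa4 had 773 and 459 (difference 0.78). Ndufa6 was lower at -0.36, Ndufs1 at -0.16 and Uqcrfs1 at -0.13. The accessory subunits of complex I had a median of 0.40 with 12 of 28 higher by 0.5 or more, and the core subunits 0.24 with 1 of 7.

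Mutant melanocytes also had more genes detected per cell than wild-type melanocytes, and in 53 pairs of cells matched for that number the members' median was 0.25. Wells in plate rows A to D gave 0.28 and those in rows E to H 0.41. The differences ran with transcript length, shorter transcripts being higher in the mutant, with Spearman's rho of -0.26 over the 70 members and -0.26 over 4701 genes (in bulge cells at P56 -0.30 and -0.12), and the part of length in the result was not tested. Complex III stood at -0.06 among the matched cells. The mitochondrially encoded subunits went the other way, with a median of -0.38 in all cells and mt-Atp6 at -1.01. Glycolysis had 0.35, with 6 of 15 genes higher by 0.5 or more, Tpi1 at 0.75 and Aldoa at 0.73.

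Myeloid cells of mutant and wild-type skin had members close to each other in level. The median was 0.02 against 0.00 over all genes, with 40 members above and 30 below 0, beside 2520 and 2240 of 4816 genes. Of the members, 0 were higher and 1 was lower by 0.5 or more, beside 0.748% of all genes in each direction (1.9% higher and 1.35% lower of those in at least 50% of cells). As a log2 ratio of mean TPM 11 members reached 0.5 in either direction, and on log2(TPM + 1) 33 did. The share of all genes was not counted on these scales. The 1 member was Cox6b1, with mean TPM of 605 in mutant and 998 in wild-type cells and a difference of -0.68 (2.67 ± 1.10 in 72 cells against 3.35 ± 1.06 in 73). Ndufa4 stood at -0.48 and Uqcr11 at -0.46, and at the other end Cox7a2l, known for its part in joining complexes III and IV, at 0.49, Cox7b at 0.40 and Atp5d, the delta subunit, at 0.36. The mitochondrially encoded subunits had a median of 0.01. T and NK cell markers were the leading ones in 4 of the 73 wild-type cells and in 8 of the 72 mutant cells, and in the cells led by myeloid markers the members' median was 0.05.

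Between wild-type bulge cells at P56 and P30, more members were lower than higher at P56. The median was -0.12, against 0.07 over all genes, and 14 members were lower and 1 higher by 0.5 or more, beside 4.07% and 6.08% of all genes (9.71% and 13.1% of those in at least 50% of cells). These 15 members became 26 as a log2 ratio of mean TPM, 30 in cells matched for genes detected and 36 on log2(TPM + 1). Again no share of all genes was counted beside them. Uqcrb was lower by 1.54 (2.94 ± 0.70 in 83 cells against 4.48 ± 1.09 in 84), Ndufb6 by 1.23 and Atp5l by 1.15. These are small subunits of 3 different complexes, and each had over 1000 mean TPM at P30. All 8 members of complex III were below 0, where 1657 of the 4816 genes tested were. Atp5g2 was the one higher member at 0.90, followed by Atp5b and Cox7a2l, both at 0.49. The 5 head and central stalk subunits of complex V had a median of 0.36 and the 3 membrane subunits e, f and g one of -0.39. The mitochondrially encoded subunits were lower at P56 as well, all 12 below 0 with a median of -0.73, led by mt-Co3 at -2.68, and cytosolic ribosomal proteins were higher by a median of 0.68. Matched for genes detected (26 pairs) the members' median was -0.35, and matched for immediate early genes (38 pairs) it was 0.08, so its sign rested on which cells were set side by side. The pairs matched for immediate early genes still differed in genes detected, with medians of 3998.5 at P56 and 3022.5 at P30.

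The mutant bulge cells at P56 set against wild-type cells at P30 had Atp5g2 at the upper end and Uqcrb and Ndufb6 at the lower end as well. The median was 0.16, against 0.09 over all genes, with 9 members higher and 5 lower by 0.5 or more, beside 7.68% and 3.57% of all genes (14.9% and 7.31% of those in at least 50% of cells). Atp5g2 was higher by 1.16 (2.14 ± 0.63 in 89 cells against 0.98 ± 0.61 in 84), Cox7c by 1.03 and Ndufs5 by 0.77. Uqcrb stood at -1.22, Ndufb6 at -1.13 and Ndufa1 at -0.63. Complex V had a median of 0.34, complex IV 0.27, complex I 0.11 and complex III 0.00. Matched for genes detected (27 pairs) the members' median was -0.10, and matched for immediate early genes (43 pairs) it was 0.04. The latter pairs differed in genes detected, with medians of 4513 in mutant P56 and 3001 in wild-type P30 cells. The 2 comparisons share the P30 cells, and the values of Uqcrb, Ndufb6 and Atp5g2 rest on that plate in both.

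Set against wild-type bulge cells at P56, wild-type melanocytes had mostly lower members, with a median difference of -0.46 against -0.04 over all genes. Below 0 were 65 of 70 members, beside 2832 of the 4816 genes tested. There were 34 members lower and 0 higher by 0.5 or more, beside 11.9% and 5.36% of all genes (22.1% and 9.4% of those in at least 50% of cells). The count in either direction was 18 as a log2 ratio of mean TPM and 68 on log2(TPM + 1), with no share of all genes counted. Complex III had the lowest median at -0.61, with complex IV at -0.43, complex I at -0.41 and complex V at -0.38. Atp5e, the small epsilon subunit of the central stalk, stood at -1.26 (1.69 ± 1.41 in 81 cells against 2.94 ± 0.69 in 83), Ndufb8 at -1.08 and Atp5g1 at -1.05. Ndufb7, Ndufs1 and Ndufv1 were level, at 0.07, 0.04 and 0.01. The mitochondrially encoded subunits were higher in melanocytes by a median of 0.52. Far fewer genes were detected per melanocyte than per bulge cell, and in the 17 pairs of cells that could be matched for it the members' median was -0.24. As a log2 ratio of mean TPM shares, with no log per cell, it was -0.17. Cytosolic ribosomal proteins had a median of -0.88 and glycolysis one of -0.55. Atpif1, the inhibitor of the ATP synthase, was lower by 1.81.

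Wild-type myeloid cells had mostly lower members than wild-type bulge cells, with a median difference of -0.50 against -0.15 over all genes, with 36 lower and 1 higher by 0.5 or more, beside 15.7% and 5.59% of all genes (27.3% and 8.23% of those in at least 50% of cells). Complex IV had a median of -0.15, beside -0.15 over all genes and -0.23 over those in at least 50% of cells. Complex III had -0.66, complex I -0.57 and complex V -0.52. Uqcrc1, the core 1 protein of complex III, had mean TPM of 159 in myeloid and 558 in bulge cells (1.08 ± 1.06 in 73 cells against 2.63 ± 0.89 in 83, difference -1.55). Ndufb9 stood at -1.31 and the core subunit Ndufs7 at -1.27. All 7 core subunits of complex I were below 0, 6 of them by 0.5 or more, where 3626 of the 4816 genes tested were below 0. Ndufa3 was the one higher member at 0.53, and Cox6b1 and Ndufb7 followed at 0.38 and 0.32. In 24 pairs matched for genes detected the members' median was -0.34 and that of complex IV 0.04. The mitochondrially encoded subunits had a median of -0.11.

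The c subunits of the ATP synthase, which form its rotating ring, are encoded by 3 genes, Atp5g1, Atp5g2 and Atp5g3, that make the same mature protein from different precursors. Their promoters in RefSeq (GRCm38.p6, 250 bases before to 50 after the start) are shown because the genes were used in different proportions by the groups, with the motifs searched for NRF1, ETS, YY1 and CCAAT in capitals.
Atp5g1 (chr11:96075582-96075881, - strand): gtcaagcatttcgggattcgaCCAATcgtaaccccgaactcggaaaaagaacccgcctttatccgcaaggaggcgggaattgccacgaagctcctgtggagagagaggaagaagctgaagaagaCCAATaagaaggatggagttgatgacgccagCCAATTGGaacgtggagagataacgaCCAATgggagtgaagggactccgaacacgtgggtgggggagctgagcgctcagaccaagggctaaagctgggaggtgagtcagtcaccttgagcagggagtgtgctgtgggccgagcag
Atp5g2 (chr15:102670998-102671297, - strand): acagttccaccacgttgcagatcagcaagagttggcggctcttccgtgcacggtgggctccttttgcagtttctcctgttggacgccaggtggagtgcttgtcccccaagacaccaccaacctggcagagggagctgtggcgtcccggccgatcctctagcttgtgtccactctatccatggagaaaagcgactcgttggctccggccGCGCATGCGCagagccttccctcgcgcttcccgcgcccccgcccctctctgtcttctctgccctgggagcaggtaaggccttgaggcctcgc
Atp5g3 (chr2:73911277-73911576, - strand): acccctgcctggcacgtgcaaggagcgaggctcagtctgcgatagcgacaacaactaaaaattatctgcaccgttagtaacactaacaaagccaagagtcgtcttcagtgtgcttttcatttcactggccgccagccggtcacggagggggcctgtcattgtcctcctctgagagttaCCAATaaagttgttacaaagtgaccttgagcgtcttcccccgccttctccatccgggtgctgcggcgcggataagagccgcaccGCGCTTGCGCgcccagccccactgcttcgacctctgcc
Atp5g1 held 5 CCAAT motifs, beginning 229, 126, 95, 92 and 69 bases before the start, and no NRF1 motif. Atp5g2 held 1 NRF1 motif 42 bases before the start. Atp5g3 held 1 NRF1 motif 13 bases after the start and 1 CCAAT motif 72 bases before it.

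The summed mean TPM of the 3 genes was 1105 in P30 bulge cells, 1112 and 1674 in bulge cells of wild-type and mutant skin at P56, 844 and 1072 in melanocytes of wild-type and mutant skin, and 673 and 542 in myeloid cells of wild-type and mutant skin. Atp5g1 made up 50.7%, 52.01% and 58.1% of the sum in P30, wild-type P56 and mutant P56 bulge cells. In wild-type and mutant melanocytes it made up 35.1% and 30.4%, where Atp5g3 was the largest part at 37.9% and 42.2%. Atp5g2 made up 8.44% in wild-type P30 bulge cells and between 20.5% and 33.04% in all other groups. Within cells, Atp5g1 was the highest of the 3 genes in 42 of 84 wild-type P30 bulge cells (95% interval 38.9% to 61.1%), in 62 of 83 wild-type P56 cells (63.96% to 83.6%) and in 76 of 89 mutant cells (76.3% to 91.99%). In wild-type melanocytes Atp5g1 led in 28 and Atp5g3 in 27 of the 79 cells with any of the 3 genes, and in mutant melanocytes Atp5g1 led in 20 and Atp5g3 in 39 of 84.

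Ndufa4 and Ndufa4l2 are paralogs, and Ndufa4l2 is known as a gene raised by low oxygen. Ndufa4 was found in 64.2% to 96.6% of the cells of every group. Ndufa4l2 was found in 48.8% of wild-type P30 bulge cells (37.7% to 59.96%), in 56.6% of wild-type P56 (45.3% to 67.5%) and in 16.9% of mutant bulge cells (9.75% to 26.3%), with mean TPM of 232, 393 and 118. It was listed at 0 in all 81 wild-type melanocytes and in all 73 and 72 wild-type and mutant myeloid cells, which allows shares of cells with a detected value of up to 3.70%, 4.11% and 4.17%, and it was found in 1.19% of mutant melanocytes. Within bulge cells at P56 the pair thus went opposite ways, with Ndufa4 higher by 1.11 in the mutant and Ndufa4l2 at -1.13. Ndufa4l2 stood under the 25% limit and is not among the 70 members counted above.

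**Figure D4:**
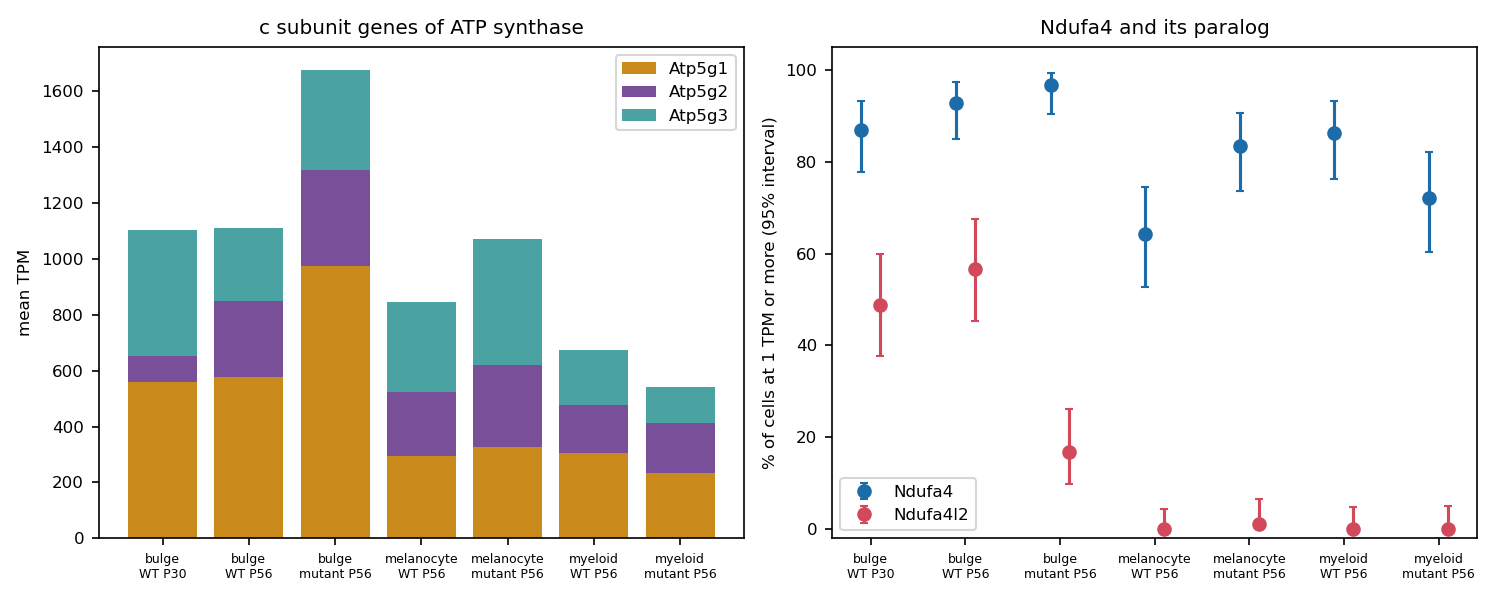
Left, stacked mean TPM of the 3 c subunit genes in the 7 groups. Right, percent of cells at 1 TPM or more for Ndufa4 and Ndufa4l2 with exact 95% intervals. Atp5g1 is the largest part of the sum in all bulge and myeloid groups, and Ndufa4l2 was found almost only in bulge cells, at 48.8%, 56.6% and 16.9%.

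Members with and without the NRF1 motif had nearly the same medians in the genotype comparisons of bulge cells and melanocytes. The median with the motif (15 members) and without it (45 tested members with a promoter in the table) were 0.29 and 0.29 in bulge cells at P56, and 0.33 and 0.33 in melanocytes. Against wild-type bulge cells they were -0.61 and -0.43 in melanocytes and -0.52 and -0.47 in myeloid cells. For mutant P56 against wild-type P30 bulge cells they were 0.00 and 0.13. With the YY1 motif (7 members) and without it (53), the medians were 0.41 and 0.28 in bulge cells at P56. In melanocytes by genotype the YY1 medians were 0.33 and 0.33. The part of any motif in the differences was not tested.

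**Figure D5:**
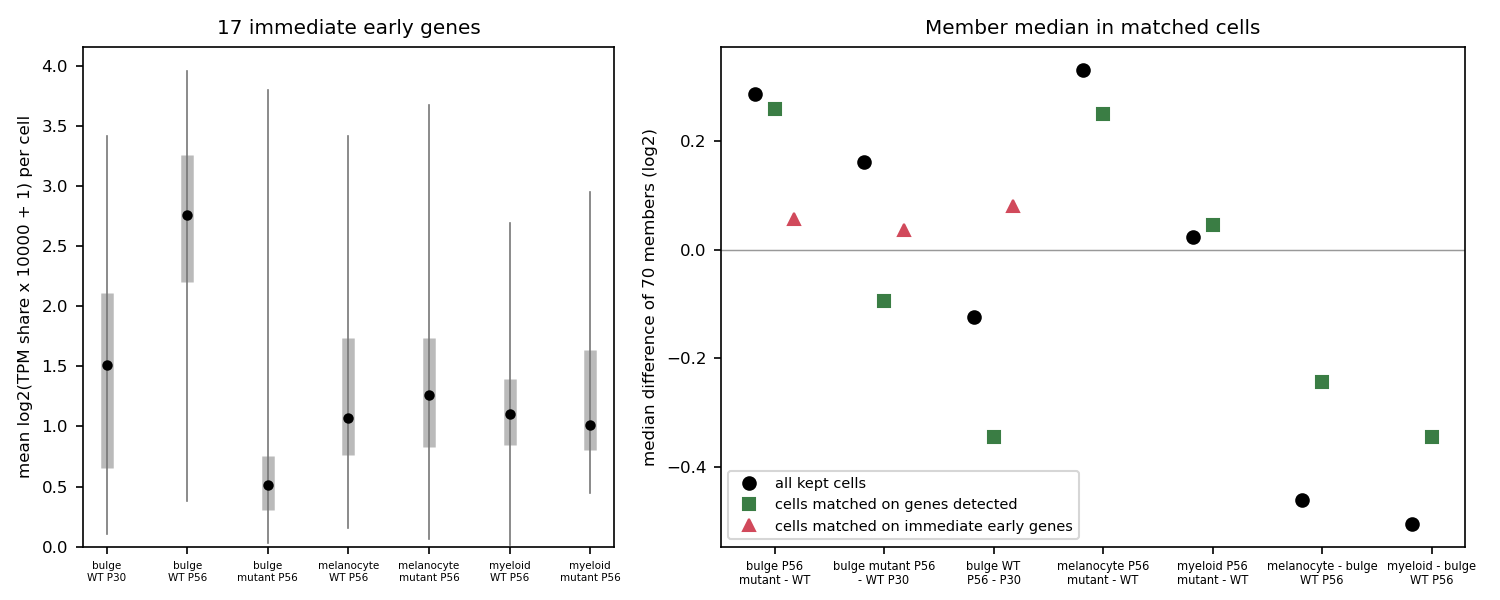
Left, mean log2 level of 17 immediate early genes per cell (dot median, bar quartiles, line range) in the 7 groups. Right, median difference of the 70 members in all kept cells and in cells paired on genes detected or on immediate early genes. In bulge cells at P56 the median is 0.29 in all cells, 0.26 in cells paired on genes and 0.06 in cells paired on immediate early genes.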

How the data were processed

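Single cells of mouse dorsal skin were captured on Fluidigm C1 chips, and libraries from full-length cDNA were made in plates and sequenced. The authors deposited TPM per gene and cell. Per the submitters' processing notes and the study's methods, reads were aligned with STAR 2.4.2 to GRCm38 and quantified with RSEM, and chambers that were empty or held several cells had been left out. The methods name both FPKM and TPM, and the deposited tables are TPM. Read depth cannot be had from TPM and is unknown. Of 31002 gene IDs, 40 symbols with several IDs were averaged, which left 30957 symbols. Groups came from the labels (for the P30 plate, from the titles), and 1 column that matched no sample was not used. OXPHOS genes have many processed pseudogenes, and how reads shared with them were divided is uncertain.

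A cell entered the analysis if its TPM summed to 750000 or more, if mitochondrial genes took no more than 20% of it, and if it had 2000 to 7000 genes above 0 (bulge) or at least 1000 (others). No doublet caller was run. The values of 1 member are not reported here individually. Values were log2(TPM divided by the cell total x 10000 + 1). A gene was detected at 1 TPM and entered comparisons when found in 25% of cells as the mean of the 7 groups' shares. A difference of 0.5 was counted. With 1 sample per group no test was run. In each comparison the 3 highest and 3 lowest members were named, and in each complex the 3 most abundant, the lowest and the paralogs with restricted forms. Others were named as roles or lists required, after their values were seen. Members and lists were chosen with earlier results of these data known, and the roles within complexes after the values were seen. Results were recomputed under up to 11 other settings chosen at the outset, as far as each applied, and under 2 chosen after seeing the data (cells led by markers of their own lineage, and detection at 10 TPM). Scripts were tested on simulated data. The software was pandas 2.3.3 and NumPy 2.4.6 under Python 3.11.15, with matplotlib 3.10.9 for plots and SciPy 1.17.1 for intervals. Promoters came from RefSeq, GRCm38.p6.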

Additional observations from a re-analysis of the deposited data

Results flagged for a closer look

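Some genotype differences pointed in opposite directions in different cell types, and none of these contrasts was tested, since each group is 1 sample. The median difference (mutant minus wild-type, log2 scale) of the mitochondrially encoded subunits was 0.44 in bulge cells and -0.38 in melanocytes. That of glycolysis was -0.20 in bulge cells and 0.35 in melanocytes. Cytosolic ribosomal proteins stood at -0.16 in bulge cells, -0.18 in melanocytes and 0.22 in myeloid cells. Cox6b1 was higher by 0.80 in mutant melanocytes and stood at -0.68 in mutant myeloid cells.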

How the results depend on the processing

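No paired analysis was possible because each group is 1 sample and the labels give no shared replicate numbers. The members' median kept its direction in all 7 comparisons when all cells, only cells led by their own lineage markers, another denominator, no filter or a 50% filter on genes, or centring on the median gene was used. On log2(TPM + 1), which gives zeros more weight, it was 0.49 for mutant against wild-type bulge cells at P56, 0.46 for mutant P56 against wild-type P30, 1.36 in melanocytes, 0.21 in myeloid cells, -2.27 for melanocytes and -1.82 for myeloid cells against bulge cells. As a log2 ratio of mean TPM it was -0.17 for melanocytes against bulge cells, where complex II and electron carriers stood at 0.00837 and the citric acid cycle list at 0.19.

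In cells matched on immediate early genes, which was done for bulge cells alone, the members' median was 0.0574 for mutant against wild-type at P56, 0.0367 for mutant P56 against wild-type P30 and 0.0815 for wild-type P56 against P30, the last with the opposite sign. In the first of these complex I was -0.0378, complex II and electron carriers -0.0167 and glycolysis 0.0537, and in the last complex I was 0.0384. In cells matched on genes detected the members' median was -0.35 for wild-type P56 against P30, -0.24 for melanocytes against bulge cells and, with the opposite sign, -0.0951 for mutant P56 against wild-type P30, where complex I was -0.18, complex V -0.0447, complex II and electron carriers -0.25 and mitochondrial ribosomal proteins -0.0972. The same matching gave -0.0629 for complex III in melanocytes by genotype, 0.0270 for the citric acid cycle list and 0.17 for Cox6a1 in melanocytes against bulge cells, and 0.0378 for complex IV in myeloid against bulge cells. Assembly factors were at 0.0043 with no filter for wild-type P56 against P30. For myeloid against bulge cells, the mitochondrially encoded subunits were at 0.0388 when centred on the median gene and 0.0568 in plate rows A to D. The count of members at 0.5 or more moved by over 1.5 times on log2(TPM + 1) in each of the 7 comparisons, to 34, 40, 36, 60, 33, 68 and 62 in the order of the report's plot of differences. The share of all genes at 0.5 was not counted on that scale. The causes were not tested. Upper and lower plate rows were not compared for myeloid cells by genotype, as mutant columns name no well. Matching keeps few cells, and low members are limited by the detection of single cells.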
